A study of Mus musculus with 8 samples.

Results

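This report describes 37 mouse genes of the lysosome other than the cathepsins, out of 30406 genes that were listed in all libraries. The members were taken by name from a list that comprises 21 soluble hydrolases, activators and other luminal proteins, 9 membrane proteins, 6 subunits or accessory proteins of the vacuolar proton pump (v-ATPase) and the transcription factor gene Tfeb. The data are single-cell RNA-seq counts of leukocytes from C57BL/6 mice, which the study describes as adult and male, sorted as CD45+ cells not reached by a CD45 antibody given into the blood (CD45iv-CD45+). There was 1 library each of control brain parenchyma, pia mater and dura mater, 2 libraries of brain and 1 each of pia and dura at 24 h after transient middle cerebral artery occlusion (MCAO, a model of ischemic stroke), and 1 library of brain at 72 h. The study gives naive mice as the controls of these libraries in its methods and sham mice in a figure legend, and it describes repeated experiments that were pooled for each compartment without the number of mice per library, so a difference between libraries may be technical as well as biological. For control pia the title gives brain parenchyma while the other labels give pia, and the library was used as pia.

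Lysosomes are the acidic organelles in which cells degrade material taken up by phagocytosis and endocytosis and material delivered by autophagy. The v-ATPase pumps protons into the lumen, soluble hydrolases such as glycosidases, sulfatases, proteases and lipases work at the resulting low pH with the help of activator proteins, and heavily glycosylated membrane proteins line the inside and carry the products out. In brain, microglia and the macrophages of the meninges are the main phagocytes, and inherited loss of many of these genes causes lysosomal storage disease.

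The libraries held 32457 cells with one of the authors' 21 cluster names, among 36854 barcodes, and between 6591898 and 20754181 unique molecular identifiers (UMIs) each. The median annotated cell had 1071.5 to 2501 UMIs, and at most 0.816% of the barcodes of the smaller library were shared by a pair of libraries. The 37 members together took 905127 UMIs, or 1.37% of those in annotated cells. Levels are UMIs summed per library and cluster, divided by all UMIs of those cells and brought to a common total (CPM). The UMIs count transcript ends, so levels are compared between cells and not between genes. The 95% Poisson and binomial intervals given below cover counting error only.

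A pair of libraries stood apart from the other 6. The brain library at 72 h and replicate 2 of the brain libraries at 24 h list 31053 genes, and the others list 32285. In macrophage clusters Atp6v0c, the proton-carrying c subunit of the v-ATPase, was at 21.2 CPM in replicate 2 of brain at 24 h and at 23.8 CPM in brain at 72 h, against 768 to 1222 CPM in the other 6 libraries. The same gap was present in microglia clusters, with 44.0 and 60.4 CPM against 700 to 1096 CPM, and in lymphoid clusters, with 10.1 and 6.68 CPM against 253 to 423.4 CPM. Laptm4a, which encodes a small membrane protein of late endosomes and lysosomes, was also lower in this pair than in every other library in the 3 classes, at 165.1 and 181.6 CPM against 434 to 761.2 CPM in macrophage clusters. Npc1, the cholesterol exporter of the lysosomal membrane, lay the other way, at 127 and 130.7 CPM against 17.9 to 27.2 CPM in macrophage clusters. Ids, a sulfatase of glycosaminoglycan breakdown, was at 24.7 and 32.3 CPM against 2.296 to 8.696 CPM there. Of the 37 members, 2 were above and 2 below the other libraries in all 3 classes, 12 lay within their range in all 3, and 21 differed from class to class. The same count was not made over all genes, so these numbers do not set the members apart from other genes. The pair also stood apart in its cell barcodes, with 8 shared between them and 0 to 2 shared with any of the other 6, which shared 10 to 32 with each other. The study lists kit version 3 for brain at 72 h and dura at 24 h and version 2 for the rest, which is not the split seen in the barcodes or the gene lists. Both libraries are of brain after MCAO, and for these members the gene list and the barcode set cannot be told apart. The other brain library at 24 h is labelled with the same tissue, time and treatment as replicate 2. It has the list of 32285 genes, and its levels of Atp6v0c, Laptm4a, Npc1 and Ids are within the ranges given for the other 6. The labelled condition thus does not separate the 24 h replicates, while brain at 72 h has no other library. The cause of the split was not tested, and calls that rest on the pair are given with and without these libraries.

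**Figure D1:**
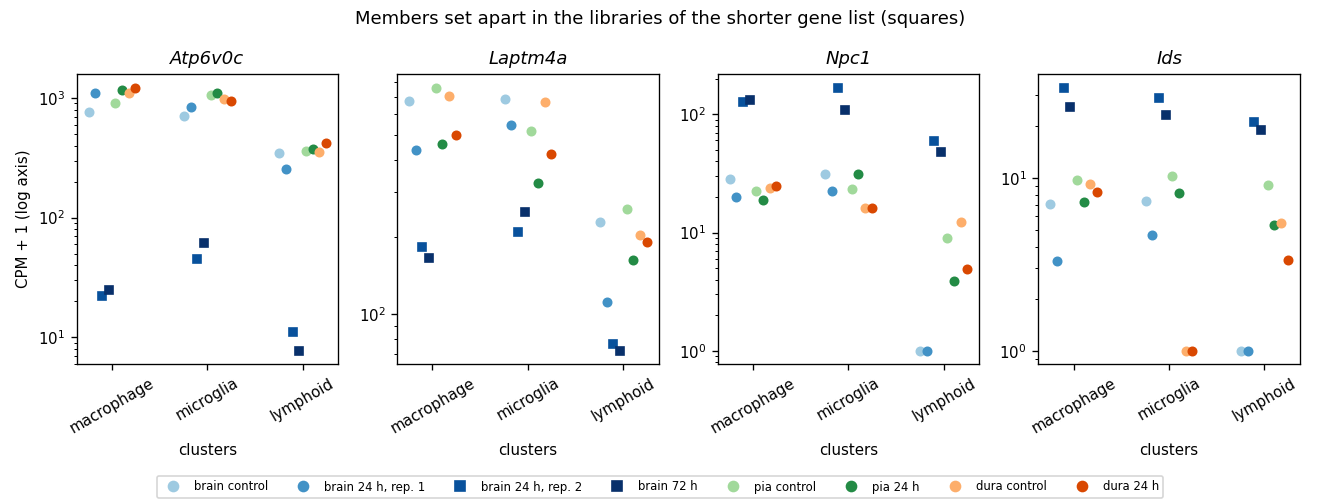
Levels of Atp6v0c, Laptm4a, Npc1 and Ids as CPM + 1 on a log axis in the macrophage, microglia and lymphoid clusters, with 1 point per library. The 2 libraries with the list of 31053 genes (squares) lie below the other 6 for Atp6v0c and Laptm4a and above them for Npc1 and Ids in all 3 classes.

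The authors' clusters were used as named and were summed into classes. The macrophage clusters are Macro_1, Macro_2, CAM_1 and CAM_2, and the microglia clusters stress_Micro and Micro_1 to Micro_3. The lymphoid clusters are ILC2, gdTc, Tc, NK and Bc, and the granulocyte clusters Granulo_1 and Granulo_2, while SAMC (stroke-associated myeloid cells) stood alone. Marker genes went against the class in part of the libraries. The 5 macrophage markers (Apoe, Lyz2, Pf4, Lyve1 and Mrc1) summed to 8165 CPM in the macrophage clusters of control brain and to 3090 CPM in those of brain at 24 h replicate 1, with Lyve1 at 0 in both, while the 4 microglia markers (Tmem119, P2ry12, Cx3cr1 and Sparc) summed to 11480 and 3538 CPM in the same cells. In the microglia clusters of control dura, dura at 24 h, control pia and pia at 24 h the macrophage markers summed to 34220, 38050, 12690 and 9387 CPM and the microglia markers to 1003, 576.6, 5662 and 2836 CPM. All SAMC sums held the 5 markers Spp1, Lpl, Fabp5, Gpnmb and Cd14, at 27120 to 129300 CPM, but in brain at 24 h replicate 1 the macrophage markers summed to 592.9 CPM there, with Lyve1 and Mrc1 at 0. Markers of other cells were low in the macrophage, microglia, lymphoid, granulocyte and SAMC sums, with at most 89.9 CPM for astrocytes, neurons, endothelium and platelets, 203.5 CPM for oligodendrocytes and 612.4 CPM for erythrocytes. Fibroblast markers reached 876.2 CPM in microglia clusters of dura at 24 h and at most 27.5 CPM in the other classes. Counts were also taken without the libraries whose macrophage or microglia clusters went against their markers.

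The members formed a gradient from macrophage and microglia clusters to lymphoid clusters. A score was taken as the mean over the 37 members of log2(CPM + 10) in each of the 112 sums of 1 cluster in 1 library with at least 30 cells. CAM_2 had the highest mean score, 7.52 ± 0.18 (SD, n = 8 libraries), and Tc (T cells) the lowest, 5.77 ± 0.12 (n = 8). The study names the CAM clusters central nervous system-associated macrophages and describes weaker border transcripts in CAM_2 than in CAM_1. The clusters stress_Micro (7.51 ± 0.15, n = 2), SAMC (7.43 ± 0.26, n = 4), Micro_1 (7.43 ± 0.29, n = 7), CAM_1 (7.34 ± 0.16, n = 8), Micro_3 (7.34 ± 0.25, n = 6) and Micro_2 (7.27 ± 0.27, n = 6) followed CAM_2, and neighbours in this order differed by less than the SDs. The means are over different libraries. The cluster stress_Micro had enough cells only in the 2 libraries with the shorter gene list. It was in place 5 of 16 clusters in brain at 24 h replicate 2 and 4 of 19 in brain at 72 h. Macro_1 had enough cells only in brain at 72 h, where its score of 7.51 was in place 8 of 19 clusters and SAMC (7.79) was in place 1. Granulo_1 had a score of 7.04 ± 0.12 (n = 7) and Macro_2 of 6.91 ± 0.16 (n = 8). Stressed myeloid cells (6.83 ± 0.39, n = 3), proliferating cells (6.66 ± 0.34, n = 3) and the dendritic cell clusters mDC1 (6.56 ± 0.12, n = 6) and mDC2 (6.34 ± 0.13, n = 6) were intermediate. Mast cells (5.96 ± 0.18, n = 2), gdTc (5.94 ± 0.24, n = 4), NK (5.89 ± 0.13, n = 6), Granulo_2 (5.86 ± 0.25, n = 6), Bc (5.82 ± 0.11, n = 6) and ILC2 (5.82 ± 0.20, n = 5) lay near the T cells and did not differ beyond their spread. The granulocyte clusters thus lay apart, with Granulo_1 between Micro_2 and Macro_2 and Granulo_2 among the lymphoid clusters.

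**Figure D2:**
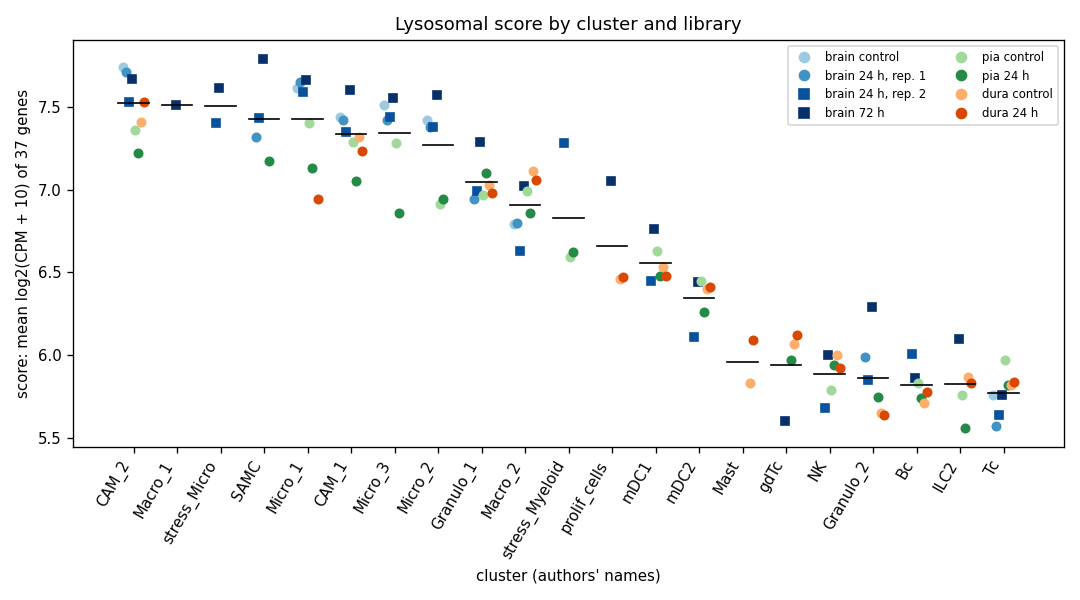
Mean log2(CPM + 10) of the 37 members on the vertical axis by cluster, with 1 point per library of at least 30 cells and a bar at the mean. The score falls from 7.52 in CAM_2 to 5.77 in Tc, and squares mark the 2 libraries with the shorter gene list.

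The score did not place SAMC above the other phagocytes in every library. SAMC ranked 6 of 10 clusters in brain at 24 h replicate 1, 4 of 16 in brain at 24 h replicate 2, 1 of 19 in brain at 72 h and 2 of 17 in pia at 24 h. Their score minus that of the macrophage clusters was -0.16, 0.28, 0.30 and 0.15 in these libraries (mean 0.14 ± 0.21, SD, n = 4), and minus that of the microglia clusters -0.20, -0.02, 0.18 and 0.11 (mean 0.02 ± 0.17, n = 4). Microglia minus macrophage clusters gave 0.04 ± 0.17 (n = 8), positive in 5 of 8 libraries. Macrophage minus lymphoid clusters gave 1.36 ± 0.24 (n = 8), from 1.11 to 1.78, and granulocyte minus macrophage clusters -0.50 ± 0.33 (n = 7), from -0.99 to -0.02.

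Single members did not all follow the score. By mean CPM over the libraries in which a cluster was measured, Macro_1 was the highest cluster for 8 members, CAM_2 and stress_Micro for 7 each, SAMC for 5, and Granulo_1, Micro_1 and mDC1 for 2 each. These means set different libraries side by side. The stress_Micro values come only from the 2 libraries with the shorter gene list. Its members include Npc1 and Ids, which were above the other 6 libraries in that pair. The Macro_1 value is that of brain at 72 h alone. In that library SAMC was above Macro_1 for Psap (7550 against 5024 CPM), Grn (2118 against 1755 CPM), Plbd2 (108.5 against 93.58 CPM) and Galns (82.03 against 40.94 CPM), 4 of the 8. Gm2a, the activator that lifts GM2 ganglioside out of membranes for its breakdown, was highest in mDC1 at 771.1 ± 285.8 CPM (SD, n = 6). It was at 1192 CPM in brain at 24 h replicate 2, 996.7 CPM in brain at 72 h, 626.2 and 530.2 CPM in control and 24 h pia, and 824.2 and 457.2 CPM in control and 24 h dura. The mDC1 value was above that of the macrophage clusters in each of these libraries. The macrophage clusters had 507 and 562.6 CPM in the 2 libraries with the shorter gene list and 67.5 to 147.3 CPM in the other 6. Ppt1, the thioesterase that removes palmitate from proteins, was also highest in mDC1 (477.8 CPM on average), from 97.4 CPM in brain at 24 h replicate 2 to 902.5 CPM in control dura. Cd164, a sialomucin of endosomes, lysosomes and the cell surface, was highest in gdTc, at 436.5 CPM in brain at 72 h, 296.7 CPM in pia at 24 h, 406 CPM in control dura and 370.6 CPM in dura at 24 h. These sums rest on 14 to 131 UMIs. The 4 values were all above the highest T cell (208.2 CPM), NK (187.4 CPM) and macrophage cluster value (160.2 CPM). Gla (alpha-galactosidase) was highest in ILC2 at 164.4 ± 101.7 CPM (SD, n = 5), before SAMC at 115.4 CPM. Within libraries the order of these clusters was not steady. ILC2 had 47.9 CPM (5 UMIs) and SAMC 142.8 CPM in brain at 72 h, and 129.3 and 100.5 CPM in pia at 24 h. The highest ILC2 values were those of control and 24 h dura (228.7 and 304.6 CPM), where SAMC had too few cells. Glb1 (beta-galactosidase) was highest in mast cells, but at 48.25 CPM (4 UMIs) in control dura and 286.1 CPM (41 UMIs) in dura at 24 h. ILC2 had 116.2 and 119.5 CPM of Glb1 in these libraries. Gusb (beta-glucuronidase) was highest in Micro_3 at 337.7 ± 77.65 CPM (SD, n = 6), with SAMC at 333.6 CPM within that spread.

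The contrast of macrophage with lymphoid clusters, within each of the 8 libraries, was the broadest. Of 36 members tested, 26 were higher in macrophage clusters and 0 lower by the quasi-likelihood test of edgeR, in which each library was a block. A gene was called at a fold of 2 or more and an adjusted p (Benjamini-Hochberg) under 0.05. Of the 10090 genes tested 32.4% were called, 17.6% higher and 14.8% lower. The median log2 fold change was 1.91 over the members and -0.03 over all genes. As clusters were formed from the same counts, the p-values show only how steady a difference was over libraries. Without scaling factors for composition, 24 members were called higher and 0 lower, and the split of all genes moved from 1779 higher and 1493 lower to 1433 higher and 2181 lower, with a median of -0.34. Without the libraries of the shorter gene list 28 of 37 members were called, beside 35.1% of genes, and without the libraries whose markers went against the class 27 of 37, beside 33.4% of genes, all higher. DESeq2 called 27 of 36 members, beside 32.3% of genes. In lymphoid clusters the macrophage markers summed to 148.6 to 5163 CPM and the microglia markers to 7.46 to 914.4 CPM, against 3090 to 66380 CPM of macrophage markers in macrophage clusters, and the part of these in the lymphoid levels was not tested.

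Among the soluble proteins, 14 of 21 were called. Lgmn (legumain, an asparaginyl endopeptidase that processes cathepsins; chr12:102394084-102439813 on GRCm38, minus strand) ranged from 1130 to 7615 CPM in macrophage clusters, with a median of 2363 CPM, and from 75.2 to 605.8 CPM in lymphoid clusters, with a median of 149.5 CPM. The ranges did not overlap, and the log2 fold change was 4.41 ± 0.26 (SE; adjusted p = 8.97e-10). Grn, the gene of progranulin, a luminal protein needed for normal lysosomal function, had 561.1 to 1395 CPM (median 692.1) against 30.4 to 151.5 CPM (median 60.9), a log2 fold change of 3.88 ± 0.19. Asah1 (acid ceramidase) had 196.1 to 781.9 CPM (median 528.5) against 20.2 to 102.9 CPM (median 45.8), a log2 fold change of 3.66 ± 0.20. For these 3 genes each macrophage value was above each lymphoid value. Hexa (hexosaminidase alpha subunit, 3.24 ± 0.18) and Psap (prosaposin, the precursor of the saposin activators, 3.03 ± 0.16) came next. Psap was at 2913 CPM in macrophage clusters of control brain, 2027 and 2329 CPM in brain at 24 h, 5369 CPM in brain at 72 h, 2272 and 1807 CPM in control and 24 h pia, and 2727 and 2797 CPM in control and 24 h dura, with lymphoid values from 251.6 to 594.4 CPM. Npc2, the luminal cholesterol carrier, had 864.3 to 1827 CPM against 289.6 to 440.3 CPM and Creg1, a secreted lysosomal glycoprotein, 185.3 to 540.5 CPM against 50.6 to 115.9 CPM, with log2 fold changes of 2.01 ± 0.16 and 2.20 ± 0.22.

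Not all hydrolases took part. Arsb (arylsulfatase B) had a log2 fold change of -0.39 ± 0.21 (adjusted p = 0.137), Pld3, a member of the phospholipase D family with exonuclease activity, of 0.17 ± 0.24 (adjusted p = 0.588), and Glb1 of 0.21 ± 0.22 (adjusted p = 0.451). Gla (0.77 ± 0.24), Galns (a sulfatase of keratan sulfate, 0.89 ± 0.35), Neu1 (sialidase, 0.90 ± 0.19) and Ids (0.99 ± 0.28) had an adjusted p under the threshold but less than a 2-fold difference.

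Of the 9 membrane proteins 7 were called. Lamp1, a main glycoprotein of the lysosomal membrane, was at 628.5 to 1233 CPM (median 1018) in macrophage clusters and at 114 to 263.1 CPM (median 183.7) in lymphoid clusters, without overlap and with a log2 fold change of 2.78 ± 0.15. Lamp2 was higher by 2.94 ± 0.20 on the log2 scale. Laptm5, a membrane protein of hematopoietic cells, was at 436.9 to 1369 CPM in macrophage and 360.4 to 907.7 CPM in lymphoid clusters, so the ranges overlapped, and its log2 fold change of 0.87 ± 0.17 was under 2-fold although it was higher in 8 of 8 libraries. Cd164 was at 39.7 to 160.2 CPM in macrophage and 70.9 to 180 CPM in lymphoid clusters (log2 fold change -0.36 ± 0.24, adjusted p = 0.214), higher in macrophages in 2 of 8 libraries. Mcoln1, the mucolipin calcium channel, was called at 1.09 ± 0.31, but fell to 0.98, under 2-fold, without control pia and likewise without dura at 24 h.

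All 5 tested v-ATPase members were higher, Atp6v1a (catalytic A subunit) by 2.58 ± 0.19, Atp6v0c by 1.92 ± 0.17, Atp6ap2 by 1.91 ± 0.21, Atp6ap1 by 1.87 ± 0.16 and Atp6v1b2 (B2 subunit) by 1.22 ± 0.18 on the log2 scale. Atp6v1b2 was higher in 6 of 8 libraries and the other 4 in 8 of 8. Atp6v0c was higher in macrophages within each of the 8 libraries although its level in the 2 libraries of the shorter list was far below the others. Tfeb, the transcription factor that activates lysosomal genes, had 11.7 to 49.9 CPM in macrophage and 14.5 to 45.7 CPM in lymphoid clusters, and a log2 fold change of 0.05 ± 0.18 (adjusted p = 0.969). Its macrophage values were 49.9, 34.0, 32.3 and 33.5 CPM in control brain, brain at 24 h replicates 1 and 2 and brain at 72 h, and 15.7 and 11.7 CPM in control and 24 h pia and 15.6 and 12.5 CPM in control and 24 h dura, so the 4 brain libraries were above the 4 meningeal ones. In control brain and replicate 1 the macrophage clusters carried more microglia than macrophage markers. The other 2 brain libraries have the shorter gene list, so tissue cannot be told apart from these differences.

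**Figure D3:**
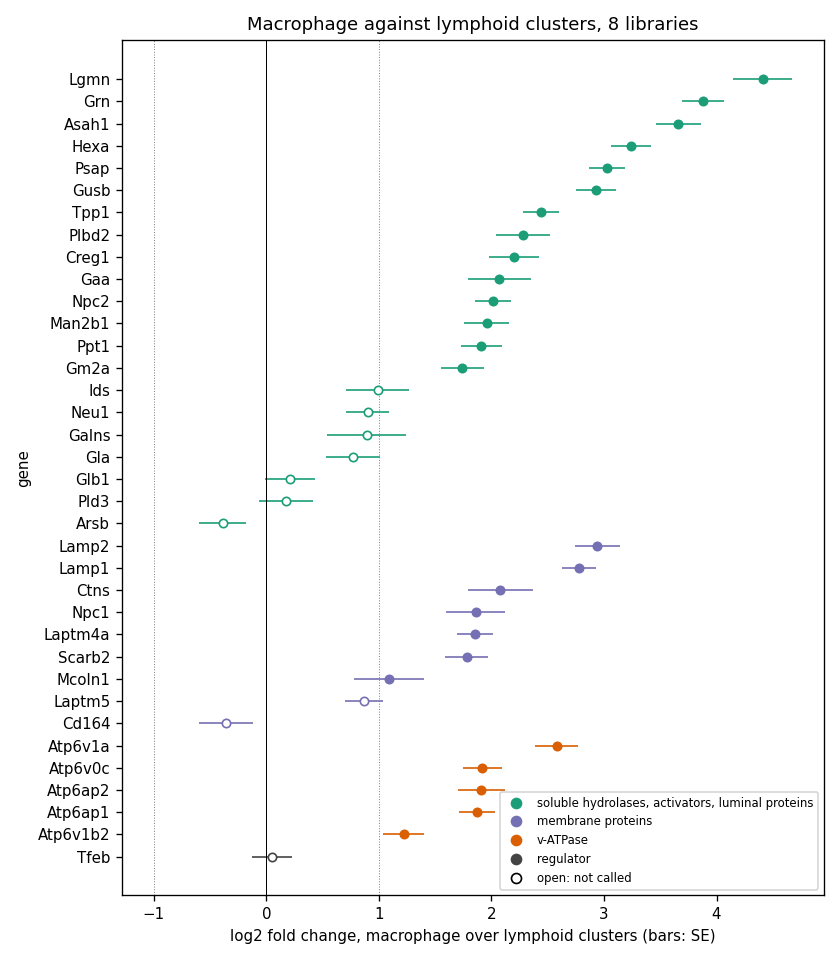
Log2 fold change of macrophage over lymphoid clusters on the horizontal axis, with SE bars, for the 36 members tested, grouped by role. Filled points passed the test and open points did not, dotted lines mark a 2-fold difference, and values run from -0.39 (Arsb) to 4.41 (Lgmn).

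Other lysosomal genes showed the same direction. Of 12 other v-ATPase subunits 6 were higher, of 19 other hydrolases 14, of 12 other membrane proteins 8 and of 7 sorting genes and regulators 4, and none of these was lower. The largest log2 fold changes were those of Slc11a1 (a divalent metal transporter of phagosomes, 5.01 ± 0.36), Cd68 (a macrophage lysosomal glycoprotein, 4.59 ± 0.23) and Cd63 (a tetraspanin of late endosomes, 4.55 ± 0.21).

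Many lysosomal genes carry the CLEAR element, an E-box variant to which TFEB binds. RefSeq promoter windows of 300 bases on GRCm38.p6, which run from 250 bases before to 50 bases after the start, were given for 31 of the 37 members (38 windows). The core of the element, TCACGTGA, was in 4 of these 31 members and in 1.12% of all 27025 genes with a window. The same core with a G before and a C after it was in 0 members and in 0.37% of genes. The shorter E-box CACGTG, which that core contains, was in 8 members including those 4, and in 8.09% of genes. These motifs read the same on both strands. The 28 bases around the match are shown for all 8, as these members contrast in their levels, with Lgmn and Lamp1 among the genes that were higher in macrophages and Cd164 and Gla among those not called. Capitals mark the TCACGTGA match in the first 4 and the CACGTG match in the other 4, and sequences are written 5′ to 3′ on the strand of the gene.
Atp6v1a, chr16:44139374-44139401, minus strand: tttttttaaaTCACGTGAtaggcttaac
Cd164, chr10:41519402-41519429, plus strand: gccgggctgcTCACGTGAccggcgcgcg
Gla, chrX:134601216-134601243, minus strand: aagcgattgaTCACGTGAgcatctacgt
Mcoln1, chr8:3500463-3500490, plus strand: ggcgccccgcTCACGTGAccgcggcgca
Gaa, chr11:119267812-119267839, plus strand: ttctgtgcgatCACGTGtttgactctga
Glb1, chr9:114401019-114401046, plus strand: tgcttctgagtCACGTGgcctacagagg
Lamp1, chr8:13159089-13159116, plus strand: gggcaagatatCACGTGgtccagcgccc
Lgmn, chr12:102439125-102439152, minus strand: ggaatgtctgtCACGTGgtccattttat
The 4 members with the TCACGTGA core had log2 fold changes of 2.58 (Atp6v1a), 1.09 (Mcoln1), 0.77 (Gla) and -0.36 (Cd164) between macrophage and lymphoid clusters, and Psap, Grn and Asah1, among the largest differences, are not among the 8. A match is a description of the letters and was not tested for binding.

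Few members were called between microglia and macrophage clusters. In 6 of the 8 libraries 1 of these classes carried more markers of the other class than of its own. The test over 8 libraries thus cannot show how far microglia and macrophages differ. Of 37 members tested over 8 libraries, 2 were lower in microglia clusters and 0 higher, against 10.4% of 11048 genes called, 4.66% higher and 5.77% lower. The medians were -0.15 over the members and 0.02 over all genes, and without scaling for composition the all-gene split moved from 515 higher and 637 lower to 782 higher and 466 lower. DESeq2 called 0 members, beside 10.1% of genes. At an unadjusted p under 0.05 edgeR had 8 of 37 members, 1 higher and 7 lower, beside 34.5% of genes. Without the libraries of the shorter gene list edgeR called 1 member, beside 5.71% of genes. Gm2a was at 98.3, 67.5, 507 and 562.6 CPM in macrophage clusters of the 4 brain libraries (control, 24 h replicates 1 and 2, 72 h), 88.2 and 71.5 CPM in control and 24 h pia and 147.3 and 94.7 CPM in control and 24 h dura. Microglia clusters of the same libraries had 97.8, 72.5, 73.6, 179.4, 76.4, 33.9, 91.2 and 89.9 CPM. The log2 fold change of Gm2a was -1.09 ± 0.31 (adjusted p = 0.0252), lower in 7 of 8 libraries, but without the libraries of the shorter gene list the value was -0.52 (adjusted p = 0.0879). Its call was also lost when control dura (-1.10, adjusted p = 0.0604), pia at 24 h (-1.07, adjusted p = 0.0648), brain at 72 h (-0.96, adjusted p = 0.114) or replicate 2 of brain at 24 h (-0.81, adjusted p = 0.0271, under 2-fold) was left out. Atp6v0d2, the d2 isoform of the v-ATPase best known from osteoclasts and macrophages, had a log2 fold change of -3.24 ± 0.86 (adjusted p = 0.0107). It was at 0, 5.05, 0 and 1.01 CPM in macrophage clusters of the 4 brain libraries in the order above, 0.242 and 0.249 CPM in pia and 7.34 and 13.2 CPM in dura. In microglia clusters it had 1 UMI each in brain at 72 h and in replicate 1 of brain at 24 h and 0 UMIs in the other 6 libraries, and without brain at 24 h replicate 1 it was -2.12 (adjusted p = 0.167). Npc2 had a log2 fold change of -0.75 ± 0.17 (adjusted p = 0.0034), lower in 8 of 8 libraries, and Atp6v1a one of -0.80 ± 0.17 (adjusted p = 0.00209), both under 2-fold. Without the 6 libraries whose markers went against either class, which leaves the 2 libraries of the shorter gene list, 5 members were called, beside 22.9% of genes, Arsb at 2.73 (adjusted p = 0.00611), Cd164 at 1.39 (adjusted p = 0.00109), Atp6v0c at 1.06 (adjusted p = 0.00887), Atp6v1a at -1.21 (adjusted p = 0.00203) and Gm2a at -2.38 (adjusted p = 0.000919).

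Lgmn and Grn did not pass the test between the 2 classes, with log2 fold changes of microglia over macrophage clusters of 0.16 ± 0.20 (edgeR, adjusted p = 0.612) and -0.05 ± 0.18 (adjusted p = 0.894). In CPM both were higher in microglia clusters in 7 of 8 libraries. Lgmn was at 8164 CPM in microglia clusters of control brain, 7292 and 2110 CPM in brain at 24 h replicates 1 and 2, 2689 CPM in brain at 72 h, 4453 and 3658 CPM in control and 24 h pia, and 2553 and 2599 CPM in control and 24 h dura. Macrophage clusters of the same libraries had 7615, 6220, 1130, 1739, 2456, 2270, 2038 and 2784 CPM. Both classes were highest in control brain and brain at 24 h replicate 1, which are also the libraries in which the macrophage clusters carried more microglia than macrophage markers, and the part of those markers in the macrophage level of Lgmn was not tested. Laptm5 was at 1322, 1091, 1585 and 2178 CPM in microglia clusters of the 4 brain libraries (control, 24 h replicates 1 and 2, 72 h) and at 374.4 to 752.4 CPM in those of pia and dura. The microglia clusters of pia and dura carried more macrophage than microglia markers, and the part of this in the Laptm5 level was not tested.

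Summed as 1 class, granulocyte clusters were lower than macrophage clusters for part of the soluble proteins. Over 7 libraries 7 of 37 members were lower and 0 higher, against 17% of 10170 genes called, 7.63% higher and 9.36% lower. DESeq2 called 7 members, beside 17.7% of genes. Without the libraries of the shorter gene list 7 were called, all lower, beside 18% of genes, and without brain at 24 h replicate 1, where markers went against the class, 6 lower and 1 higher (Galns), beside 15.7% of genes. Lgmn was at 191.2 to 1567 CPM in granulocyte clusters (median 704.8), against 1130 to 6220 CPM (median 2270) in macrophage clusters of the same 7 libraries, with a log2 fold change of -1.87 ± 0.35 (adjusted p = 0.00384). Gaa (acid alpha-glucosidase, which degrades glycogen) was at 2.84 to 33.6 CPM (median 17.3) against 31.7 to 81.3 CPM (median 39.9), a log2 fold change of -1.39 ± 0.25 (adjusted p = 0.00193). Pld3 was at 8.05 to 110 CPM (median 51.9) against 65.7 to 410.1 CPM (median 113.7), a log2 fold change of -1.34 ± 0.28 (adjusted p = 0.00552). All 3 were lower in each of the 7 libraries, with ranges that overlapped between libraries. Tpp1 (tripeptidyl peptidase, -1.29 ± 0.26), Plbd2 (-1.28 ± 0.27), Ctns (the cystine exporter, -1.10 ± 0.30) and Grn (-1.03 ± 0.20) were also called. Ctns lost its call without brain at 24 h replicate 1 (-0.98), dura at 24 h (-0.95) or pia at 24 h (-1.04, adjusted p = 0.0539), and Grn without control dura (-0.88) or dura at 24 h (-0.91). The class joins clusters of unlike score, Granulo_1 (7.04) and Granulo_2 (5.86). Granulo_2 held 69.4% and 74.8% of the class UMIs in control and 24 h dura, and at most 37.4% elsewhere. The class score minus that of macrophage clusters was -0.83 and -0.99 in these dura libraries and -0.6 to -0.02 in the others. The calls thus hold for the summed class, and the part of this mix in them was not tested. No v-ATPase member was called, and Atp6v0c had a log2 fold change of 0.04 ± 0.20 (adjusted p = 0.923). Among the other lysosomal genes 6 of 19 hydrolases were lower, led by Pla2g15 (lysosomal phospholipase A2, -1.87 ± 0.38) and Naglu (-1.25 ± 0.21). Lower as well were 2 of 12 other membrane proteins, 1 of 12 other v-ATPase subunits and 1 of 7 sorting genes and regulators. From the last list 1 gene, Sort1 (sortilin), was higher (1.33 ± 0.32).

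SAMC were compared with the other myeloid cells in the 4 libraries with at least 30 of them, brain at 24 h replicates 1 and 2, brain at 72 h and pia at 24 h. Against the macrophage clusters 1 of 36 members was called, Pld3 (chr7:27532000-27553218 on GRCm38, minus strand), beside 2.34% of 9557 genes, 0.398% higher and 1.95% lower. DESeq2 called 1 member, beside 1.31% of genes. Pld3 was at 865.6, 299.7, 361.1 and 274.0 CPM in SAMC of these libraries, in that order, and at 410.1, 113.7, 188.1 and 110.3 CPM in macrophage clusters. It was higher in SAMC in each library, with the highest values of both classes in brain at 24 h replicate 1, and the log2 fold change was 1.12 ± 0.18 (adjusted p = 0.000317). Without the libraries of the shorter gene list, which leaves 2 libraries, the log2 fold change was 1.24 (adjusted p = 0.0926), and 0 members and 0.0124% of 8070 genes were called. Gla (0.61 ± 0.18, adjusted p = 0.0516), Galns (0.90 ± 0.26, adjusted p = 0.0581) and Creg1 (0.60 ± 0.19, adjusted p = 0.0996) did not pass, nor did Gm2a (-1.25 ± 0.36, adjusted p = 0.139). Without brain at 24 h replicate 1, whose macrophage clusters went against their markers, 3 members were called, beside 3.83% of genes, Pld3, Galns (1.16, adjusted p = 0.00348) and Gm2a (-1.40, adjusted p = 8.62e-06). Of the other lysosomal genes Igf2r, the receptor that carries mannose 6-phosphate tagged hydrolases to the lysosome, was higher in SAMC (1.53 ± 0.26, adjusted p = 0.000479) and none was lower.

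Against the microglia clusters 7 of 36 members were called, 4 higher and 3 lower in SAMC, beside 15.7% of 9658 genes, 6.01% higher and 9.69% lower. DESeq2 called 7, beside 13.1% of genes, edgeR without the libraries of the shorter gene list 5, beside 12.6%, and without pia at 24 h, whose microglia clusters went against their markers, 9, beside 14.3%. Pld3 was at 214.7, 101.8, 150.7 and 110.6 CPM in microglia clusters of the 4 libraries, below the SAMC value of each, with a log2 fold change of 1.67 ± 0.23 (adjusted p = 1e-04). Galns was at 13.0, 41.1, 82.0 and 9.13 CPM in SAMC and at 8.33, 15.2, 17.7 and 7.14 CPM in microglia clusters, with a log2 fold change of 1.57 ± 0.36 (adjusted p = 0.00509). Its SAMC values in brain at 24 h replicate 2 and in pia rested on 10 and 2 UMIs, and without brain at 72 h it was 1.00 (adjusted p = 0.116). Atp6v1a was at 87.6, 184.7, 279.9 and 73.1 CPM in SAMC and at 49.97, 81.39, 86.05 and 74.95 CPM in microglia clusters, higher in SAMC in the 3 brain libraries (1.13 ± 0.27, adjusted p = 0.00758). Without the libraries of the shorter gene list it was 0.64 (adjusted p = 0.291), and it also lost its call without brain at 24 h replicate 2 (1.09, adjusted p = 0.0569) or brain at 72 h (0.82, under 2-fold). Gla was higher by 1.03 ± 0.27 on the log2 scale (adjusted p = 0.0131), and by 0.72 (adjusted p = 0.0815) without brain at 24 h replicate 1 and 0.97 (under 2-fold) without brain at 72 h.

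The 3 members lower in SAMC than in microglia clusters were Arsb, Cd164 and Man2b1. Arsb (chr13:93771630-93943016 on GRCm38, plus strand) was at 8.66, 28.7, 14.8 and 4.57 CPM in SAMC and at 52.0, 139.7, 228.2 and 16.1 CPM in microglia clusters of the same libraries, with a log2 fold change of -2.94 ± 0.36 (adjusted p = 3.21e-05). Cd164 was at 42.2, 86.2, 61.6 and 36.5 CPM against 178.8, 245.9, 194.1 and 87.4 CPM (-1.54 ± 0.24, adjusted p = 0.000239). Man2b1 (lysosomal alpha-mannosidase) was at 95.2, 201.2, 252.6 and 141.5 CPM against 411.2, 585.4, 498.6 and 224.9 CPM (-1.22 ± 0.25, adjusted p = 0.00277), and at -0.99, under 2-fold, without brain at 24 h replicate 1. All 3 were lower in SAMC in each of the 4 libraries. The macrophage clusters had 19.3, 34.6, 19.2 and 12.5 CPM of Arsb in these libraries, between the other 2 classes. Creg1 (0.96 ± 0.23), Npc2 (0.84 ± 0.21), Lamp1 (0.68 ± 0.22) and Atp6v1b2 (0.99 ± 0.24) were above and Laptm5 (-0.70 ± 0.22) below the microglia clusters at an adjusted p under the threshold but less than a 2-fold difference. Among the other lysosomal genes the largest differences were Igf2r (4.31 ± 0.44), Acp5 (tartrate-resistant acid phosphatase, 3.91 ± 0.45) and Gnptab, an enzyme of the mannose 6-phosphate tag (2.20 ± 0.30), while Sort1 (-1.63 ± 0.34) was lower.

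**Figure D4:**
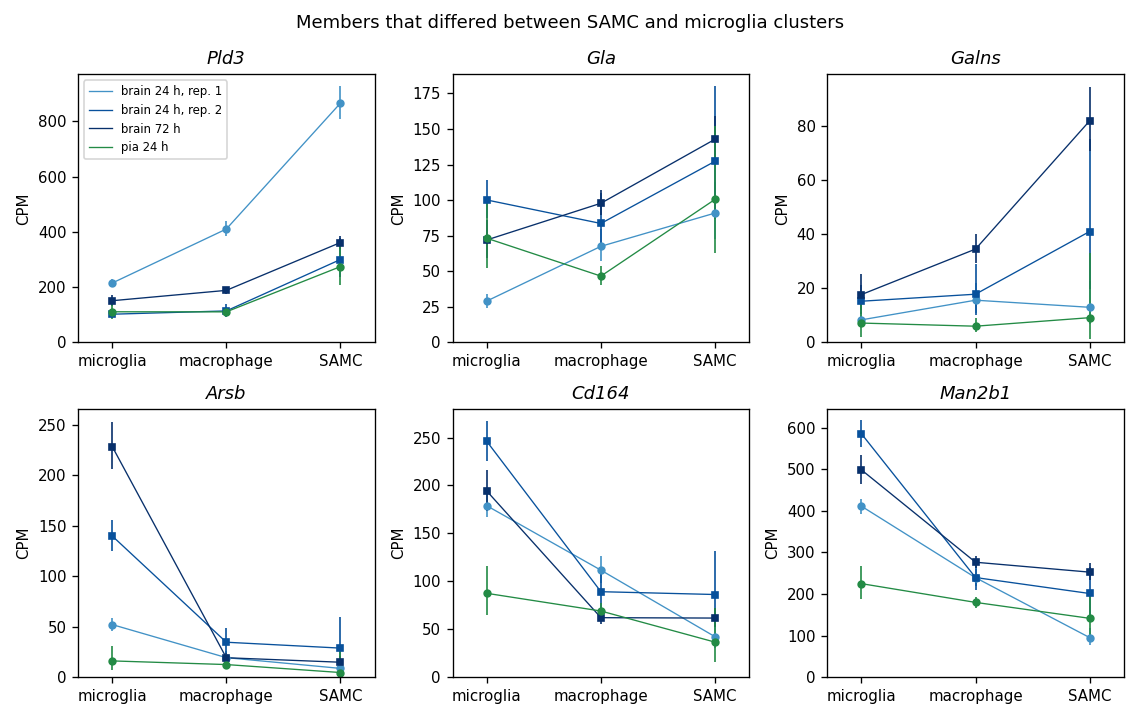
Levels in CPM with 95% Poisson intervals of Pld3, Gla, Galns, Arsb, Cd164 and Man2b1 in microglia clusters, macrophage clusters and SAMC of the 4 libraries with at least 30 SAMC, joined by library. Pld3 is highest in SAMC in all 4, up to 865.6 CPM in brain at 24 h replicate 1, and Arsb, Cd164 and Man2b1 are lower in SAMC than in microglia clusters in all 4.

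No member passed the test between 24 h and control. With tissue as a covariate over 7 libraries, edgeR called 0 of 37 members and 0% of 9486 genes in macrophage clusters, 0 of 34 members and 0% of 6847 genes in microglia clusters, and 0 of 31 members and 0% of 7251 genes in lymphoid clusters. At an unadjusted p under 0.05, 1, 0 and 1 members and 459, 181 and 107 genes were below the threshold, and DESeq2 called 0 members in each class beside 0.169%, 0.102% and 0% of genes. In simulated data of the same design edgeR recovered 96.5%, 86.5% and 94.5% of genes changed 4-fold. The simulation changed only genes above a minimum mean count, so members with fewer counts are not covered. It also gave all genes the same chosen dispersion and had no library set apart as brain at 24 h replicate 2 was. Recovery in these data may thus be lower, and differences of 4-fold or less may have been missed. The largest member differences in macrophage clusters were Arsb (-1.32 ± 0.41), Hexa (-0.93 ± 0.39), Laptm4a (-0.90 ± 0.42), Asah1 (-0.85 ± 0.43) and Gla (0.79 ± 0.36), each with an adjusted p of 0.945. In both libraries of the shorter gene list, which include replicate 2 of brain at 24 h, Laptm4a and Asah1 were below and Gla above the other 6 in these clusters. For these members only the calls without that replicate are given. Without brain at 24 h replicate 2, edgeR called 0 members in each class, beside 1.44% of genes in macrophage, 2.23% in microglia and 0.704% in lymphoid clusters. Without the libraries whose markers went against the class it called 0 members, beside 2.15% of genes in macrophage and 0% in microglia clusters.

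In macrophage clusters the score at 24 h minus control was -0.06 and -0.38 for the brain replicates 1 and 2, -0.13 in pia and 0.01 in dura. The make-up of the class differed between these libraries, as Macro_2 held 50.5% of its UMIs in replicate 2 of brain at 24 h, against 7.27% in replicate 1 and 9.36% in the control. Within clusters the difference of replicate 2 from control brain was -0.09 in CAM_1, -0.21 in CAM_2 and -0.16 in Macro_2. Grn was at 1016 CPM in control brain against 879 and 660.8 CPM at 24 h, at 665 against 561.1 CPM in pia and at 672 against 712.2 CPM in dura. Creg1 was at 418.8 against 540.5 and 211.7 CPM in brain, at 199.8 against 185.3 CPM in pia and at 292.2 against 375.6 CPM in dura. The brain replicates at 24 h thus lay on either side of the control for Creg1. Lamp1 was at 1125 against 885 and 628.5 CPM in brain, 1057 against 834.7 CPM in pia and 1075 against 979.8 CPM in dura. Arsb was at 74.1 against 19.3 and 34.6 CPM in brain, 41.8 against 12.5 CPM in pia and 13.3 against 11.0 CPM in dura, where the values rest on 29 and 30 UMIs. Lamp1 and Arsb were lower in each 24 h library than in the control of its tissue, but neither passed the test.

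Between tissues, macrophage clusters of pia and dura had 0 of 37 members and 0% of 9486 genes called by edgeR. In simulated data of this design, with the limits given above, edgeR recovered 73% of genes changed 4-fold. DESeq2 called 0 members and 0.148% of genes. At an unadjusted p under 0.05 edgeR had 1 member and 169 genes. The 1 member was Atp6v0d2, with a log2 fold change of pia over dura of -5.15 ± 1.24 and an adjusted p of 1. It was at 7.34 CPM (16 UMIs) in control dura and 13.2 CPM (36 UMIs) in dura at 24 h, and at 0.242 and 0.249 CPM (1 UMI each) in control pia and pia at 24 h. Both dura libraries were thus above both pia libraries, by a ratio of 30.4 (95% interval 4.72 to 1270) in controls and 53.1 (8.94 to 2150) at 24 h. Over all libraries only 31 of 9202 cells of the macrophage clusters held a UMI of Atp6v0d2. Some cells thus held more than 1 UMI, and the intervals, which take each UMI as independent, are too narrow. Brain at 24 h replicate 1 had 5.05 CPM (11 UMIs), brain at 72 h 1.01 CPM (5 UMIs), and control brain and brain at 24 h replicate 2 had 0 UMIs. Without brain at 24 h replicate 2 the pia to dura difference was -5.19 (adjusted p = 0.0175, beside 0.839% of genes called), and without both libraries of macrophages that went against their markers -5.18 (adjusted p = 0.00069, beside 2.85% of genes). In dura at 24 h CAM_2 held 30 of the 36 UMIs (100.2 CPM). In control dura Macro_2 held 8 (5.251 CPM) and CAM_2 held 6 (44.9 CPM) of the 16.

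Macrophage clusters of brain and pia had 0 of 37 members called, beside 0.696% of 9486 genes, 0.127% higher and 0.569% lower in brain. DESeq2 called 0 members and 5.39% of genes. For this contrast edgeR recovered 84% of simulated 4-fold changes. At an unadjusted p under 0.05 there were 1 member and 1475 genes. That member was Tfeb, with a log2 fold change of 1.14 ± 0.37 (adjusted p = 0.214), and its 3 brain values were above its 2 pia values. Without brain at 24 h replicate 2 edgeR called 4 members higher in brain, Tfeb (1.19, adjusted p = 0.00926), Pld3 (1.24, adjusted p = 0.00489), Lgmn (1.15, adjusted p = 0.0144) and Atp6v0d2 (3.06, adjusted p = 0.0458), beside 20.6% of 9421 genes. The 2 brain libraries of that fit are those whose macrophage clusters carried more microglia than macrophage markers, and the part of this in the differences was not tested. Without these 2 instead, 12 members were called, 3 higher (Gm2a, Npc1 and Ids) and 9 lower, beside 38.4% of 10242 genes, but brain was then the 1 library at 24 h with the shorter gene list, so tissue and gene list cannot be told apart. Lgmn took opposite signs in these fits, 1.15 and -1.75. The change from control to 24 h in pia against that in dura was 0 for members called and 0% of 10397 genes, by edgeR and by DESeq2, with 0 members and 12 genes at an unadjusted p under 0.05, but with 1 residual degree of freedom edgeR recovered 1.5% of simulated 4-fold changes, so the test could not detect such differences.

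Brain at 72 h is a single library, so time and library cannot be told apart and no test was made. The score at 72 h was above the mean of the 24 h replicates by 0.41 in SAMC, 0.43 in granulocyte clusters, 0.18 in lymphoid, 0.17 in macrophage and 0.12 in microglia clusters. In SAMC 11 of 37 members had a 95% Poisson interval above those of both 24 h replicates (Hexa, Psap, Tpp1, Gm2a, Grn, Creg1, Npc2, Lamp1, Scarb2, Laptm5 and Atp6v1a), and 1, Atp6ap2, below both. Of all genes with at least 50 UMIs over the 3 libraries, 8.62% lay above and 6.24% below both in SAMC. In granulocyte clusters 13 members lay above both and 0 below, beside 8.02% and 2.45% of genes. In macrophage clusters 8 members lay above and 2 below (5.89% and 7.49% of genes), and in microglia clusters 6 above and 1 below (4.41% and 4.09% of genes). In lymphoid clusters 1 member lay above and 0 below (1.32% and 0.573% of genes). The make-up of the classes differed between times. Granulo_1 had 88.0% of the granulocyte UMIs at 72 h, against 85.4% and 62.6% in the 24 h replicates 1 and 2, and CAM_1 had 9.67% of the macrophage UMIs, against 68.9% and 26.8%. Within clusters the score at 72 h was above the replicates 1 and 2 by 0.35 and 0.30 in Granulo_1, by 0.30 and 0.44 in Granulo_2, by 0.18 and 0.25 in CAM_1 and by 0.22 and 0.39 in Macro_2. In CAM_2 it was between them, with differences of -0.04 and 0.14.

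Psap was at 7550 CPM in SAMC at 72 h, against 1810 and 2438 CPM at 24 h in replicates 1 and 2, and at 5369 CPM in macrophage clusters against 2027 and 2329 CPM. In microglia clusters it was at 2456 CPM, between the 24 h values of 2642 and 2140 CPM. The 72 h value of Psap was thus above both 24 h values in SAMC and macrophage clusters and between them in microglia clusters of the same library. Grn was at 2118 CPM in SAMC at 72 h against 687.1 and 960.6 CPM, Lamp1 at 1932 CPM against 873.2 and 948.3 CPM, and Npc2 at 1989 CPM against 948.9 and 1100 CPM. Creg1 was at 1008 CPM against 556.1 and 361.3 CPM in SAMC, and at 534.5 CPM against 540.5 and 211.7 CPM in macrophage clusters, where the 24 h replicates enclosed the 72 h value. Lgmn in SAMC was at 2711 CPM at 72 h, between 4873 and 2196 CPM at 24 h. Brain at 24 h replicate 2, the library that shares its gene list with brain at 72 h, was below it for Psap, Grn, Lamp1, Npc2, Creg1 and Lgmn alike in SAMC. In pia at 24 h SAMC had 1402 CPM of Psap, 771.7 CPM of Grn, 1023 CPM of Lamp1, 1087 CPM of Npc2, 337.9 CPM of Creg1 and 3835 CPM of Lgmn. Of these, the first 5 were under the brain values at 72 h and Lgmn was above.

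**Figure D5:**
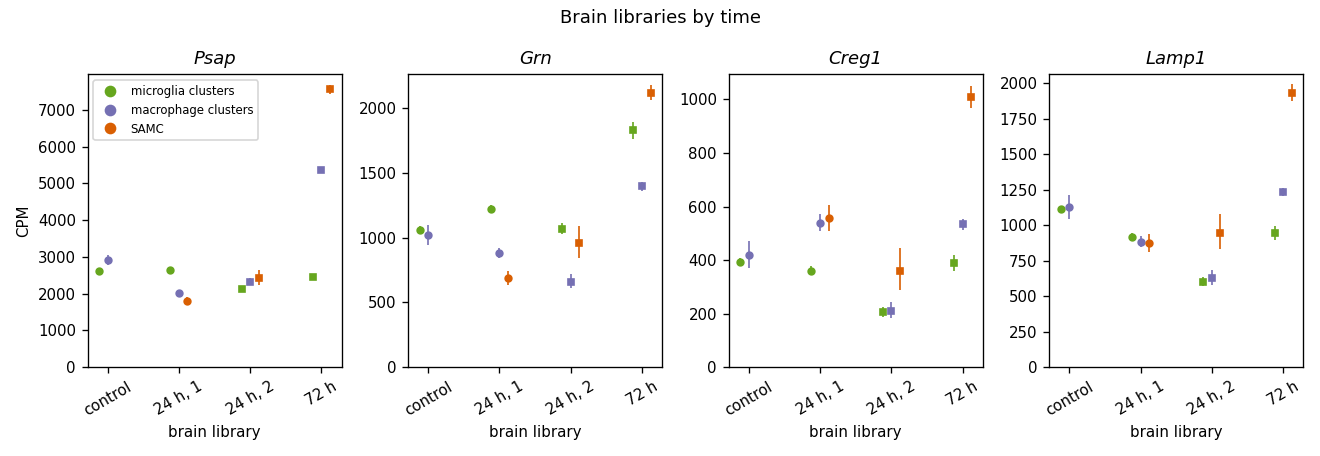
Levels in CPM with 95% Poisson intervals of Psap, Grn, Creg1 and Lamp1 in microglia clusters, macrophage clusters and SAMC of the 4 brain libraries (control, 24 h replicates 1 and 2, 72 h). SAMC at 72 h, with 7550 CPM of Psap and 2118 CPM of Grn, lie above SAMC of both 24 h libraries for all 4 genes, and squares mark the shorter gene list.

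The remaining members can be given briefly. Scarb2 (LIMP-2, the receptor that brings glucocerebrosidase to lysosomes) was higher in macrophage than in lymphoid clusters by 1.78 ± 0.19, Npc1 by 1.86 ± 0.26, Laptm4a by 1.85 ± 0.16 and Ctns by 2.08 ± 0.29 on the log2 scale, and Gusb (2.93 ± 0.18), Tpp1 (2.44 ± 0.16), Plbd2 (2.28 ± 0.24), Gaa (2.07 ± 0.28), Man2b1 (1.96 ± 0.20), Ppt1 (1.91 ± 0.18) and Gm2a (1.74 ± 0.19) were the other hydrolases and activators called. All 37 members have a gene record in GENCODE M21. Glb1, Galns and Arsb overlap another gene on the same strand there, so their counts may include or lose reads of these neighbours. A gene on the opposite strand overlaps 10 members.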

How the data were processed

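Per the submitters' processing notes, Cell Ranger 6.0 and mm10 were used for the 10x Chromium 3' reads. The authors deposited a UMI count matrix per library, with the 2 gene lists described above, and a table that names the library and cluster of each annotated cell. The deposited UMAP coordinates, a score with no fixed range, were not used. The study states that it had filtered cells by gene number and mitochondrial percentage and had removed doublets with scDblFinder. Barcodes without a cluster name may thus include cells that it removed. No further doublet caller was run here, and no cells were removed beyond those without a cluster name. UMI counts were summed per library and cluster or class, sums of fewer than 30 cells were left out, and genes were matched by identifier. The results of 1 gene of the marker and pathway lists are not reported here. Members and gene lists were chosen with earlier results of these data known. Values in every library are given for Psap, Lgmn, Laptm5, Lamp1, Grn, Npc2, Creg1, Cd164, Atp6v0c, Atp6v0d2 and Tfeb, as ranges where libraries were many, and in each comparison for the 3 called members with the largest differences in each direction. Other values were chosen after they were seen. Tests were edgeR 4.0.16 quasi-likelihood fits in R 4.3.3 with TMM scaling, with the library as a block between classes and with tissue and time as terms between libraries, each fitted on all genes that passed edgeR's filter on low counts (filterByExpr), with Benjamini-Hochberg adjustment. The SE is the absolute log2 fold change divided by the square root of the quasi-likelihood F. DESeq2 1.42.0 was the alternative tool. Scripts were tested on simulated counts with 200 genes changed 4-fold, of which edgeR recovered 96% to 100% between classes. Sums and figures were made with Python 3.11.15, numpy 2.4.6, pandas 2.3.3, scipy 1.17.1 and matplotlib 3.10.9. Alternatives were other scaling, no filter, any fold, other cell minimums, cells thinned to 500 UMIs, no block, pseudocounts of 1 and 50, and libraries left out.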

Additional observations from a re-analysis of the deposited data

How the results depend on the processing

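No paired analysis was possible because the labels share no replicate numbers that tie libraries of different tissues or times, and the library block between classes is part of the main test. Single members were followed through the alternatives only where the main test called them or where they had been picked for a comparison. Of these values, 969 kept their direction and their side of the threshold, 48 lost the call, 20 gained it and 1 turned. The latter was Gla in SAMC against macrophage clusters, at -0.05 with cells thinned to 500 UMIs and 0.61 in the main test. Other members were not counted, such as Lgmn between brain and pia, which took opposite signs with different libraries left out. The 2 members called between microglia and macrophage clusters became 0 by DESeq2, 1 without TMM scaling, 4 at any fold, 0 with at least 100 cells, 0 with thinned cells, 0 with no library block, 1 without the shorter gene list, 5 without the libraries whose markers went against the class and 1 to 2 when 1 library was left out. The 7 called in granulocyte clusters became 13 at any fold. The 1 called between SAMC and macrophage clusters became 2 with no filter on low counts, 3 with thinned cells, 0 with no library block, 0 without the shorter gene list, 3 without the libraries whose markers went against the class and 1 to 3 when 1 library was left out. The 7 between SAMC and microglia clusters became 12 at any fold, 0 with no library block and 4 to 9 when 1 library was left out. The 0 between pia and dura became 1 with no filter, 1 without the shorter gene list, 1 without marker-opposed libraries and 0 to 1 when 1 library was left out. The 0 between brain and pia became 4, 12 and 0 to 4 in the last 3 settings. Except where it was given above, the share of all genes called in each setting does not stand beside these counts. A rise or fall in them is thus not a result about the members. The score difference of macrophage and lymphoid clusters was 1.66 with a pseudocount of 1, 1.01 with 50 and 2.10 as log2 of the summed CPM, that of SAMC at 72 h was 0.50 with thinned cells and that of lymphoid clusters at 72 h was 0.39 with a pseudocount of 1. DESeq2 called 125 genes against 224 between SAMC and macrophage clusters, 511 against 66 between brain and pia, 16 and 7 against 0 at 24 h in macrophage and microglia clusters, and 14 against 0 between pia and dura. The causes were not tested. With the libraries of the shorter list or those with opposed markers left out, the change in pia against that in dura could not be fitted, nor could it with 1 library left out. The alternatives without the shorter list or marker-opposed libraries were chosen after seeing the data. Depth limits the members with few UMIs, such as Atp6v0d2, Ids, Mcoln1, Galns, Ctns, Tfeb and Arsb. With 1 library in most groups the tests between times and tissues rest on 3 residual degrees of freedom.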

Other observations

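Barcodes without a cluster name had a score of 7.08 ± 0.34 (SD, n = 8 libraries), from 6.61 to 7.48, close to that of all annotated cells (7.14 ± 0.30). In such barcodes Atp6v0d2 was at 22.3 CPM in control dura and 9.91 CPM in dura at 24 h. The B cells had a Tfeb level of 54.9 ± 22.1 CPM (SD, n = 6), and in brain at 72 h they were at 85.9 CPM, above the other clusters of that library.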
